A study of Oryza sativa Indica Group with 6 samples.

Results

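Genes of protein folding and glycosylation in the endoplasmic reticulum (ER) were followed through pollen development in rice, 5 of the 17905 genes with a probe set of their own on the array. They are BIP4 (gene 4338866), OsPDIL1-1 (also named PDI, gene 4350002), OsPDIL2-3 (gene 4347226), ERDJ3B (gene 4337860) and RPN-II (gene 4324876). All 5 were found by symbol or synonym in the RefSeq gene table, and each was measured by 1 probe set (short probes that together read a transcript). OsPDIL2-3 also carries the synonym OsPDIL5-1, which is used here for another gene, and its probe set is of a kind that can also detect other transcripts. The genes were picked because their signal was much lower at a later stage, in different steps. Their differences between stages are therefore given as descriptions, without a test.

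Proteins that are secreted or sent to membranes enter the ER as unfolded chains. BiP chaperones, of the HSP70 family, bind these chains with the help of J-proteins such as ERDJ3B, and protein disulfide isomerases such as OsPDIL1-1 and OsPDIL2-3 form and rearrange disulfide bonds. The oligosaccharyltransferase, of which RPN-II (ribophorin II) is a subunit, attaches a sugar tree to asparagine residues of the chain. The secreted and membrane proteins of pollen pass through this compartment.

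The variety was Guichao No.2 of Oryza sativa Indica Group, grown in the field, and 3 stages of its male gametophyte were compared. These were uninucleate microspores (UNM), bicellular pollen (BCP), with a vegetative and a generative cell, and tricellular pollen (TCP), with sperm cells. Each stage had 2 biological replicates by its labels, each on its own Affymetrix array, which gives 6 arrays. No genotype or treatment differed between the groups, and the labels do not say how the stages were separated from each other or from the anther.

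Signals are on the log2 scale, so that a difference of 1 is a factor of 2, and a stage mean stands with its SD over n = 2 arrays. Replicate arrays had a Pearson's r of 0.985 to 0.993 across 57194 probe sets. The 95th percentile of 64 probe sets for reporter genes, which rice does not carry, was taken as background. This was 5.00 to 5.22 for UNM, 5.60 to 5.70 for BCP and 5.72 to 5.84 for TCP. Of 5 late-pollen markers, 2 were above it on both UNM arrays and all 5 on both arrays of BCP and of TCP. All samples are bulk RNA, in which fewer cells of a type and less RNA per cell cannot be told apart. RNA quality was read from actin, whose 3' probe set exceeded its middle one by 3.06 to 3.15 in UNM, 1.81 to 1.93 in BCP and 1.90 to 1.91 in TCP. The same excess for GAPDH ranged from 0.71 to 1.29 in UNM, 0.91 to 1.10 in BCP and 1.51 to 1.60 in TCP. The part of RNA quality in the differences given here was not tested.

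BIP4 gave a bright signal on the UNM arrays and was at background on those of both pollen stages. In UNM its signal was 11.61 and 11.41, in BCP 4.05 and 3.62, and in TCP 3.33 and 3.82. Both UNM arrays lay far above the other 4, whereas the BCP and TCP arrays overlapped and all 4 lay under the reporters' 95th percentile. The stage means were 11.51 ± 0.14, 3.83 ± 0.31 and 3.58 ± 0.35. BCP was lower than UNM by a difference of -7.67 (SE 0.22). With the pollen arrays raised to background, the UNM level was at least 57.8-fold higher than that of BCP and at least 53.0-fold higher than that of TCP. BCP and TCP have no order for this gene, since both are at background.

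OsPDIL1-1 was lower at each step. Its signal was 12.70 and 12.77 in UNM, 10.66 and 10.62 in BCP, and 4.68 and 4.59 in TCP, and no stages overlapped. The means were 12.73 ± 0.05, 10.64 ± 0.03 and 4.63 ± 0.06. The difference was -2.09 (SE 0.12) from UNM to BCP, which is 4.27-fold, and -6.01 (SE 0.12) from BCP to TCP. Both TCP arrays were at background, so that BCP was at least 29.0-fold and UNM at least 124-fold higher than TCP. This is the only one of the 5 genes for which each stage lay at least 1 below the stage before it.

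OsPDIL2-3 and ERDJ3B peaked in bicellular pollen. The UNM arrays read 10.05 and 10.27 for OsPDIL2-3, the BCP arrays 11.07 and 11.28, and the TCP arrays 5.02 and 5.49. Its BCP arrays were the highest and its TCP arrays were at background, without overlap between stages. The means were 10.16 ± 0.16, 11.17 ± 0.15 and 5.25 ± 0.33, with differences of 1.01 (SE 0.19) and then -5.92 (SE 0.19). BCP was at least 42.0-fold higher than TCP. For ERDJ3B they read 10.82 and 10.87, then 11.51 and 11.70, then 6.11 and 6.33. The order was the same, and ERDJ3B alone of the 5 stayed above background on both TCP arrays. Its differences were 0.76 (SE 0.14) and then -5.38 (SE 0.14), so that BCP was 41.7-fold higher than TCP.

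RPN-II had overlapping levels in microspores and bicellular pollen and was at background in tricellular pollen. Its signal was 11.57 and 11.41 in UNM, 11.46 and 11.56 in BCP, and 4.83 and 5.04 in TCP. The UNM and BCP arrays overlapped, with means of 11.49 ± 0.11 and 11.51 ± 0.07 and a difference of 0.02 (SE 0.14) that is within the spread of the replicates. TCP, at 4.93 ± 0.15, lay below both, with a difference of -6.58 (SE 0.14) from BCP, or at least 53.1-fold.

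**Figure D1:**
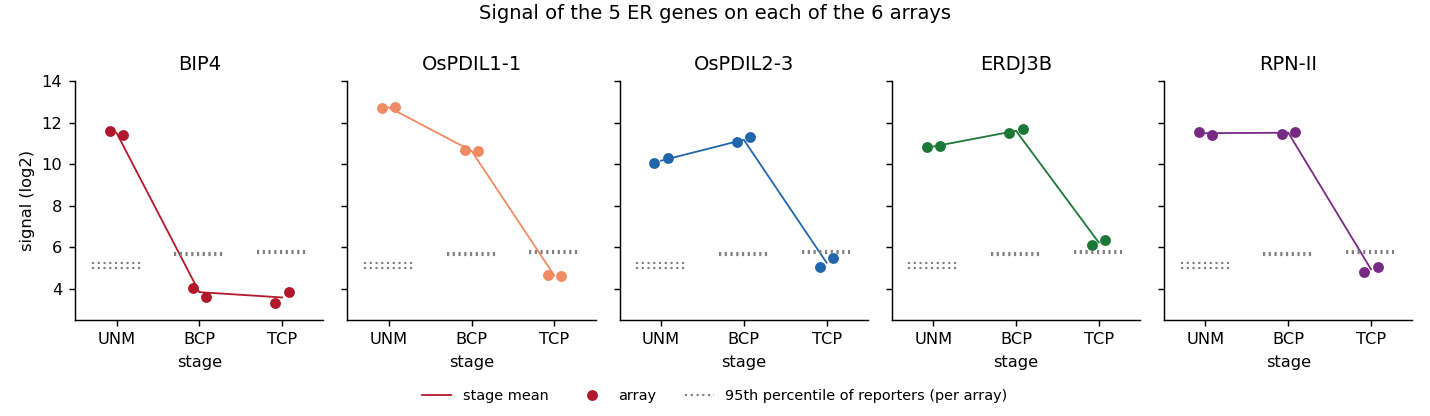
Signal (log2) of the 5 genes at the UNM, BCP and TCP stages, with points for single arrays, lines through the stage means and dotted marks at the 95th percentile of the reporter probe sets of each array. BIP4 is at background from BCP on, OsPDIL1-1, OsPDIL2-3 and RPN-II reach it in TCP, and ERDJ3B stays just above it, at 6.11 and 6.33.

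The 5 genes thus had different profiles. For BIP4 the large difference lay between UNM and BCP. For OsPDIL2-3, ERDJ3B and RPN-II it lay between BCP and TCP, and OsPDIL1-1 had a part in each step. From UNM to TCP the difference of ERDJ3B was -4.63 (SE 0.14), which is 24.7-fold. The other 4 genes were at background in TCP, and UNM was at least 53.0-fold higher for BIP4, 124-fold for OsPDIL1-1, 20.9-fold for OsPDIL2-3 and 52.3-fold for RPN-II. All 3 comparisons share stages with each other, so these values are not independent.

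To see these genes beside the rest of their pathway, an ER list was made by gene names. It held 46 measured genes, the 5 above included, in groups for chaperones, J-proteins, disulfide isomerases, the oligosaccharyltransferase, a glycan enzyme, entry into the ER, ER-associated degradation and regulators of the unfolded protein response. With limma over all 57194 probe sets, a gene is said to have risen or fallen at a difference of at least 1 with an adjusted p (Benjamini-Hochberg) under 0.05. A gene with several probe sets was represented by the brightest. The list was chosen with earlier results of these data known and was not tested as a set.

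From UNM to BCP few genes of the pathway passed. Of the 41 other genes 4 fell, 7 rose and 30 did not pass. Among all 17905 genes 25.1% fell and 17.1% rose in this step, beside 9.76% and 17.1% of the 41. The median difference of the 41 was 0.27, against -0.12 for all genes. With the 5 chosen genes counted by the same rule, from which nothing is read, 6 of 46 fell and 8 rose.

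Most of the pathway fell from BCP to TCP. Of the 41 other genes 28 fell and 2 rose, or 68.3% and 4.88%, beside 28.6% and 8.52% of all genes. The median difference of the 41 was -2.0, against -0.06 for all genes. The 28 falls ran from -5.96 to -1.55, with adjusted p by limma of at most 0.000357. With the chosen genes 32 of 46 fell and 2 rose. Without dim probe sets 27 of 38 other genes fell and 2 rose, or 71.1% and 5.26%, beside 41.9% and 11.4% of all genes.

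From UNM to TCP 27 of the 41 fell and 1 rose, or 65.9% and 2.44%, beside 37.7% and 14.4% of all genes. With the chosen genes 32 of 46 fell and 1 rose. Without dim probe sets 27 of 38 fell and 1 rose, beside 47.7% and 20.1% of all genes. Of the 41 other genes 27, or 65.9%, had their highest mean in BCP, as had 25.4% of all genes. OsSPPL3 and OsPDIL1-3 had it in TCP, and OsPDIL1-3 was at background on all 6 arrays. The remaining 12 were highest in UNM, or 29.3%, beside 45.3% of all genes. Over all probe sets, 21.6% passed from UNM to BCP, 19.2% from BCP to TCP and 30.0% from UNM to TCP.

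**Figure D2:**
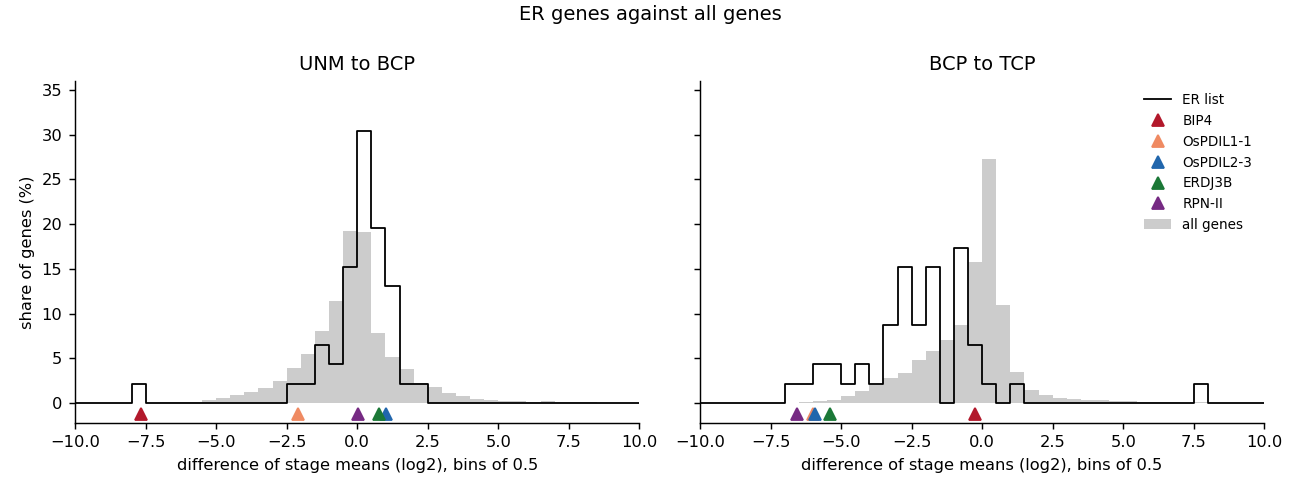
Distribution of the differences of stage means (log2, bins of 0.5) for all 17905 genes (grey bars) and the 46 genes of the ER list (black outline), as a share of each in percent, with triangles at the values of the 5 chosen genes. The ER list lies around 0 from UNM to BCP and is shifted to falls from BCP to TCP, where its median with the chosen genes is -2.29.

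Among the chaperones of the ER lumen, BIP1 differed from BIP4 in its course. BIP1 had means of 12.53 ± 0.09 in UNM and 12.80 ± 0.10 in BCP, a difference of 0.26 (SE 0.14) that did not pass. It fell by 4.31 (SE 0.14) to 8.49 ± 0.17 in TCP, well above background. The difference between both BiP genes was not tested, since BIP4 was chosen for its fall. BIP2, BIP3, P58A, P58B, OsPDIL5-3, SPC22 and HRD3 matched the list but had no probe set with a single gene, and were not analysed here. CRO1 (also named CRT1), a calreticulin, which binds calcium and glycoproteins in the ER, was at 11.90 ± 0.03 in UNM and 12.48 ± 0.04 in BCP. It fell by 5.96 (SE 0.13) to 6.52 ± 0.15, which is 62.2-fold.

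The J-proteins moved in different directions. Of the 3 beside ERDJ3B, ERDJ2 fell from BCP to TCP and was at background on both TCP arrays, so that BCP was at least 6.69-fold higher. ERDJ3A fell by 1.29 (SE 0.12) from UNM to BCP and rose by 1.03 (SE 0.12) from BCP to TCP. Its signal was 10.87 ± 0.01, 9.58 ± 0.05 and 10.61 ± 0.02, with a difference of -0.26 (adjusted p by limma 0.103) between microspores and tricellular pollen. Without BCP replicate 1 the rise was 0.99 and no longer passed. ERDJ7 rose by 1.03 (SE 0.13) from UNM to BCP and had a difference of -0.79 from BCP to TCP. Without UNM replicate 1 its rise was 0.97 and did not pass. In Arabidopsis ERdj2 works at the translocation channel, and ERdj3B delivers chains to BiP.

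Of 9 disulfide isomerases beside both chosen ones, 6 fell and 0 rose from BCP to TCP by limma, beside 28.6% and 8.52% of all genes. From UNM to BCP 0 fell and 2 rose, or 22.2% rising, beside 25.1% and 17.1% of all genes. At an unadjusted p under 0.05 by limma, 7 were lower and 0 higher in the step from BCP to TCP. In that from UNM to BCP 1 was lower and 5 were higher. OsPDIL2-2, a close relative by name of OsPDIL2-3, had means of 11.82 ± 0.04, 12.62 ± 0.10 and 7.59 ± 0.08 and fell by 5.04 (SE 0.13) from BCP to TCP. The falls of OsPDIL2-1 (-3.55, SE 0.17), OsPDIL5-2 (-3.50, SE 0.18) and OsPDIL5-1 (-1.55, SE 0.13) were also measured, with OsPDIL5-2 above background on 1 of 2 TCP arrays. OsPDIL1-4 and OsPDIL1-5 fell to background on both TCP arrays, and only bounds can be given. BCP was at least 4.38-fold higher than TCP for OsPDIL1-4 and at least 2.23-fold higher for OsPDIL1-5. The rises from UNM to BCP were those of OsPDIL1-5 (2.05, SE 0.20), above background on 1 of 2 UNM arrays, and OsPDIL5-4 (1.31, SE 0.12). OsPDIL5-4 remained at 10.74 ± 0.04 in TCP, with a difference of -0.64 from BCP. OsPDIL1-2 and OsPDIL1-3 passed in no comparison. OsPDIL1-3 was at background on all 6 arrays and OsPDIL1-2 on all but 1 UNM array, so neither could show a large fall. OsPDIL2-1 was measured by a probe set shared by several transcripts. Its second probe set differed by 2.01 and then -5.18, a rise and a fall. The first probe set had a difference of 0.98 from UNM to BCP, and passed without UNM replicate 1 (1.12) or BCP replicate 2 (1.15).

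The oligosaccharyltransferase genes fell from BCP to TCP. All 8 beside RPN-II did so, with a median difference of -2.66, where 28.6% of all genes fell. All 8 had their highest mean in BCP, as had 25.4% of all genes. The largest fall was that of OST1A (also named RPN-IA), a ribophorin I gene, with -4.06 (SE 0.15). The catalytic subunit genes STT3A and STT3B fell, with differences of -3.30 (SE 0.12) and -2.61 (SE 0.12). The others were OST1B (-2.82, SE 0.13), OST3 (-2.70, SE 0.13), OST48 (-2.40, SE 0.13), DAD-1 (-1.91, SE 0.12) and OST4B (-1.60, SE 0.14). The 8 were still above background on both TCP arrays, at means of 7.81 to 9.71, while RPN-II was not. From UNM to BCP the median difference of the 8 was 0.68, against -0.12 for all genes. At an unadjusted p under 0.05 by limma 7 of them were higher and 0 lower, without a count over all genes beside it. By the rule used here, by which 25.1% of all genes fell and 17.1% rose, only OST1B passed, with a rise of 1.18 (SE 0.13). OST1A also passed without BCP replicate 2, at 1.06, and STT3A without UNM replicate 2, at 1.01. The second probe sets of OST1A and STT3A passed in no comparison, with differences of -0.10 and 0.25 from BCP to TCP, so that these 2 falls rest on the brighter probe set. OsXylT, a xylosyltransferase that acts on glycans in the Golgi, rose by 1.09 (SE 0.20) and then fell by 1.80 (SE 0.20), with 1 of 2 TCP arrays above background.

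**Figure D3:**
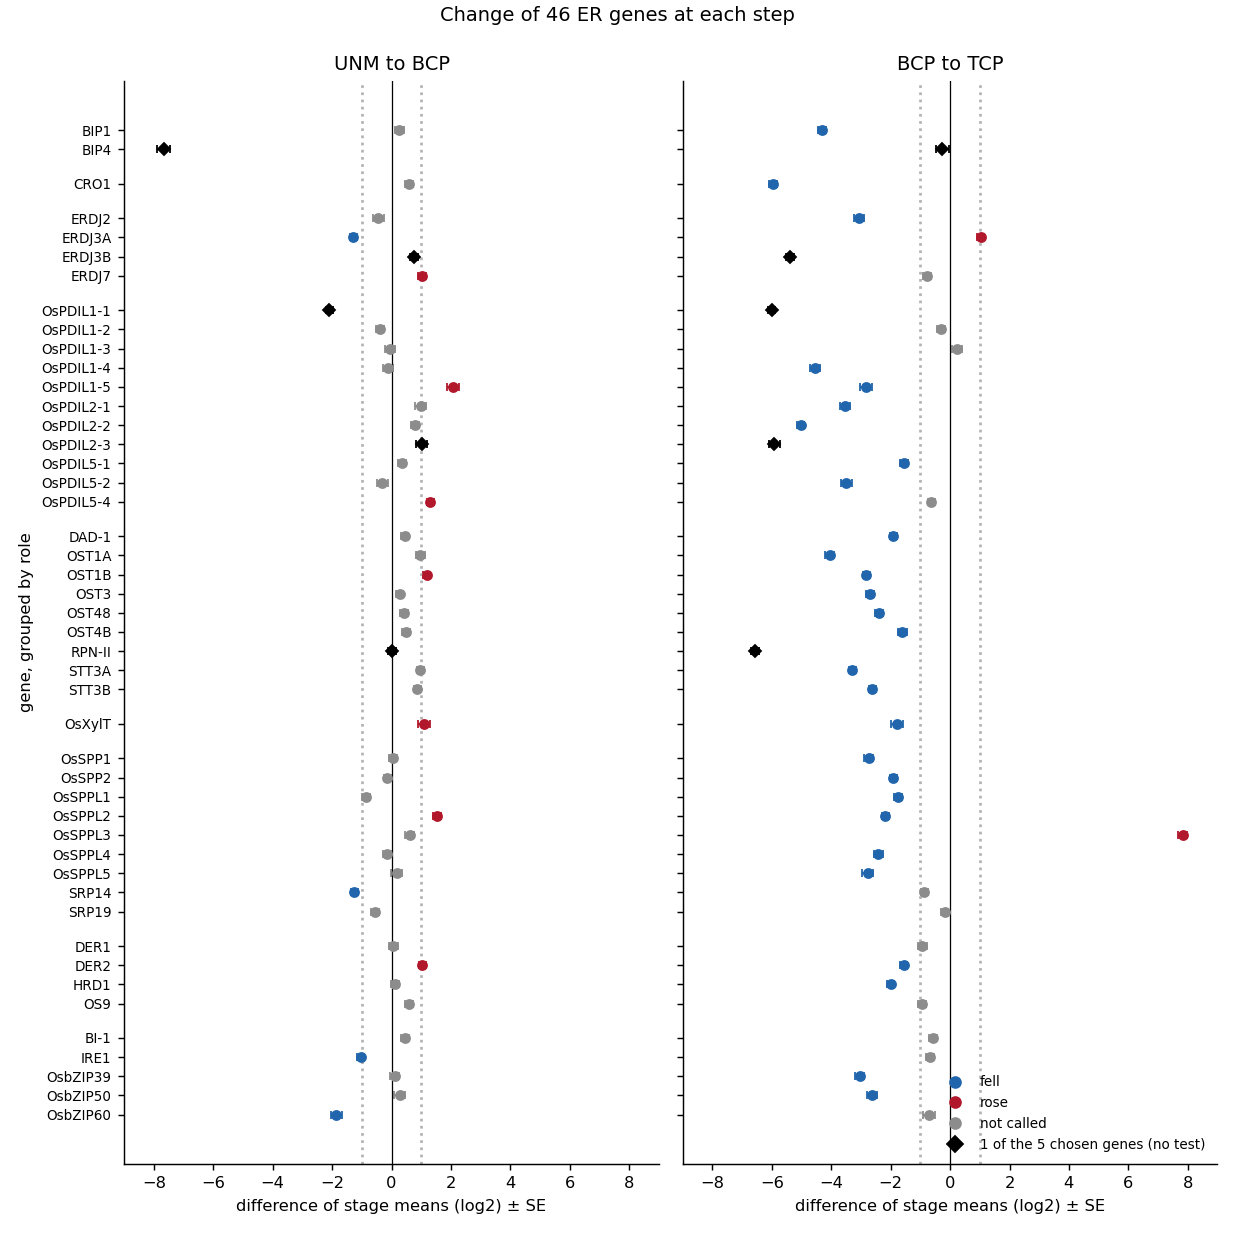
Difference of stage means (log2) with its standard error for each of the 46 ER genes, from UNM to BCP and from BCP to TCP, grouped by role. Black diamonds are the 5 chosen genes, which were not tested, blue points fell, red points rose and grey points did not pass; dotted lines mark a difference of 1. BIP4 stands alone at -7.67 in the first step, and OsSPPL3 alone at 7.83 in the second.

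Of 9 genes of entry into the ER, 6 fell and 1 rose from BCP to TCP, beside 28.6% and 8.52% of all genes. All 7 belong to the signal peptide peptidase family, whereas SRP14 (-0.87) and SRP19 (-0.19), of the signal recognition particle, did not pass in this step. The falls included OsSPPL5 (-2.78, SE 0.17) and OsSPP1 (also named IMPAS, -2.74, SE 0.14). That of OsSPP2 (-1.91, SE 0.12) was read from a probe set of the kind shared by several transcripts. Of its other probe sets, 1 also fell in this step (-1.82) and 1 passed in no comparison (0.55 in this step). Signal peptide peptidase, which gives the family its name, cuts the membrane-bound remnants of signal peptides. The SPPL genes stand in this group by their names alone. OsSPPL3 of the same family went against the list, with signals of 3.31 ± 0.10, 3.92 ± 0.21 and 11.76 ± 0.02. It rose at least 68.7-fold from BCP to TCP. SRP14, a part of the particle that brings ribosomes to the ER, fell by 1.26 (SE 0.12) from UNM to BCP, and OsSPPL2 rose by 1.53 (SE 0.13). Of 4 genes of ER-associated degradation, which removes misfolded proteins, HRD1 fell by 2.00 (SE 0.13) and DER2 by 1.56 (SE 0.12) from BCP to TCP. DER2 had risen by 1.03 (SE 0.12) before. DER1 also fell in that step without BCP replicate 2 (-1.01) or TCP replicate 1 (-1.10), and OS9 did so without TCP replicate 2.

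The regulators of the unfolded protein response, which raises chaperone genes when the ER is overloaded, mostly fell from UNM to TCP. By limma 4 of 5 fell and 0 rose, beside 37.7% and 14.4% of all genes, nor was any higher at an unadjusted p under 0.05. In the single steps 2 of 5 fell and 0 rose from UNM to BCP, beside 25.1% and 17.1% of all genes. The same numbers held from BCP to TCP, beside 28.6% and 8.52%. OsbZIP50, whose messenger RNA is spliced by IRE1, had means of 7.44 ± 0.32, 7.71 ± 0.07 and 5.07 ± 0.07. It fell from BCP to TCP, where it was at background on both arrays, so that BCP was at least 3.81-fold higher. OsbZIP39, above background throughout, fell by 3.05 (SE 0.15) in the same step, while IRE1 (-1.04, SE 0.12) and OsbZIP60 (-1.85, SE 0.20) fell from UNM to BCP. Without UNM replicate 1 the difference of IRE1 was -0.96 and did not pass. The probe sets of OsbZIP39 and OsbZIP60 are shared by several transcripts.

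Markers of the anther wall, which includes the tapetum that feeds the microspores, moved beside BIP4. Of 13 measured markers 9 fell and 0 rose from UNM to BCP by limma, beside 25.1% and 17.1% of all genes. All 13 were lower at an unadjusted p under 0.05, but 2 of them were at background on all arrays of both stages. Their summed signal on the linear scale was 7789 and 8176 on the UNM arrays, 599 to 620 on the BCP arrays and 387 to 431 on the TCP arrays. Of the 13, 11 were above background on both UNM arrays and 10 were at background on both BCP arrays. For the lipid transfer protein gene C6 the UNM arrays read 10.84 and 10.80 and the BCP arrays 3.93 and 4.25. The part of these cells in the UNM level of BIP4 was not tested. From BCP to TCP, where the other 4 chosen genes had their large differences, 2 of the 13 markers fell and 1 rose. These are 15.4% and 7.69%, beside 28.6% and 8.52% of all genes. Of 5 photosynthesis genes 1 fell from UNM to BCP, CAB2R, and 0 passed by limma from BCP to TCP, where at an unadjusted p under 0.05 1 was lower and 2 were higher. Of the 5 late-pollen markers all rose from UNM to BCP and 0 passed by limma from BCP to TCP, where 1 was lower and 1 higher at an unadjusted p under 0.05.

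**Figure D4:**
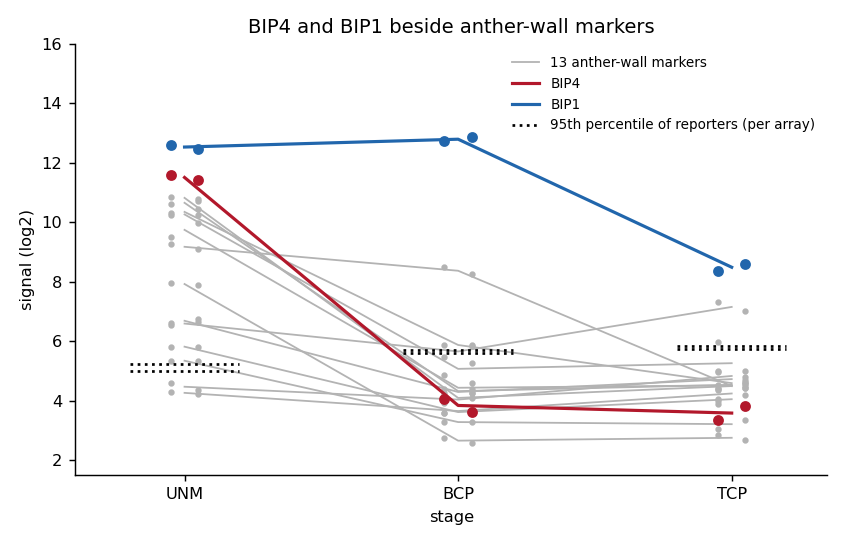
Signal (log2) of BIP4, BIP1 and the 13 anther-wall markers at each stage, with points for single arrays, lines through the stage means and dotted marks at the 95th percentile of the reporter probe sets. BIP4 and most markers are at background from BCP on, whereas BIP1 is at 12.80 in BCP and 8.49 in TCP.

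The genes with the most similar profiles were found among 2457 other genes that carry a proper name and not just a locus or clone code, by the root mean square (RMS) difference over the 6 arrays after each profile was centred on its mean. The nearest to BIP4 were CAB2R, a chlorophyll-binding protein (RMS 0.40), LTP110-A, a lipid transfer protein (0.55), and GDH3, a glutamate dehydrogenase (0.65). CAB2R had means of 11.35 ± 0.09, 4.55 ± 0.05 and 3.94 ± 0.10. No gene of the ER list was among these 3. All 3 were, like BIP4, at background on all BCP and TCP arrays, so those stages cannot tell them apart. OsPDIL2-3 had ERDJ3B (0.24) and CRO1 (0.24) as its nearest, followed by LKHA4 (0.27). Since ERDJ3B and OsPDIL2-3 were both chosen for their falls in these data, nothing is read from their likeness. For ERDJ3B the nearest were LKHA4 (0.18), OsPDIL2-2 (0.20) and cbp31 (0.23). OsPDIL1-1 was nearest to the translation genes EF-1-beta (0.48) and RPS15 (0.51), and to BOP1 (0.51). RPN-II was nearest to the phosphate transporter gene PHT1-7 (0.11), to DAPDC of lysine synthesis (0.18) and to the ribosomal protein gene RPL5 (0.22). These likenesses rest on 6 arrays of 3 stages, in which many genes share a profile.

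ERDJ3B lies beside OsPDIL2-1 in the RefSeq gene table of rice, with 1 transfer RNA gene between them in the order of starts. Both were highest in BCP, as were 65.9% of the 41 other ER genes and 25.4% of all genes, and lowest in TCP. The differences were 0.76 for ERDJ3B and 0.98 for OsPDIL2-1 in the first step, and -5.38 and -3.55 in the second. The second probe set of OsPDIL2-1, which is not of the shared kind, gave 2.01 and -5.18. Since ERDJ3B was chosen for its fall, nothing is read from this likeness. None of the other 4 chosen genes had a gene of the ER list among the 2 entries on each side. Most of those entries carry no name beyond a locus or clone code and could not match a list made by names. Nothing is therefore read from this absence.

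The values above are as deposited, and 4 other scalings of the arrays were set beside them. As deposited, the median of all probe sets differed by 0.06 from UNM to BCP and by 0.14 from BCP to TCP. It differed by -0.20 and -1.09 after scaling by the 21 hybridization controls, bacterial transcripts added before hybridization. From BCP to TCP the difference of RPN-II was -6.39 to -7.81 over the 5 scalings, that of OsPDIL1-1 -5.81 to -7.24, that of OsPDIL2-3 -5.73 to -7.15 and that of ERDJ3B -5.14 to -6.61. All but that of ERDJ3B end at background in TCP and are not sizes of change, and that of ERDJ3B ends just above background. Relative to the median of all probe sets they were -6.72, -6.15, -6.07 and -5.53 as deposited. From UNM to BCP the difference of BIP4 was -7.51 to -7.94, and those of OsPDIL2-3 (0.75 to 1.18) and ERDJ3B (0.50 to 0.92) stayed above 0 in all 5. The difference of RPN-II in that step was -0.24 to 0.19, and relative to the median of all probe sets it was -0.08 after the quantile normalisation and -0.04 under the other 4.

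The counts of the 41 other ER genes and of all genes both moved with the scaling. From UNM to BCP 4 fell and 7 rose after a further quantile normalisation, beside 24.2% and 17.2% of all genes, and the same numbers after centring on the median, beside 24.8% and 17.3%. After centring on the 75th percentile 3 fell and 11 rose, beside 22.2% and 19.3%, and after scaling by the hybridization controls 5 fell and 3 rose, beside 30.7% and 14.2%. The median difference of the 41 minus that of all genes was 0.39 to 0.40 under the 5 scalings.

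Between BCP and TCP falls outnumbered rises among the 41 under each scaling. The quantile normalisation gave 26 falls and 2 rises, beside 24.4% and 12.1% of all genes, and the median gave 31 and 1, beside 30.9% and 6.98%. The 75th percentile gave 28 and 2, beside 25.7% and 11.4%. The hybridization controls gave 39 and 1, but then 67.7% of all genes fell and 3.14% rose. The median difference of the 41 minus that of all genes was -1.64 after the quantile normalisation and -1.94 under the other 4. Rises were 30.9% of all probe sets called in this step as deposited, 45.6% after the quantile normalisation, 44.9% with the 75th percentile and 2.68% with the hybridization controls.

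From UNM to TCP the quantile normalisation gave 25 falls and 1 rise among the 41, beside 34.1% and 18.1% of all genes. The 75th percentile gave 25 and 2, beside 32.2% and 20.0%, and the hybridization controls 39 and 1, beside 76.5% and 6.59%. Rises were 40.3% of all probe sets called in that comparison as deposited, 60.7% with the 75th percentile and 4.74% with the hybridization controls.

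**Figure D5:**
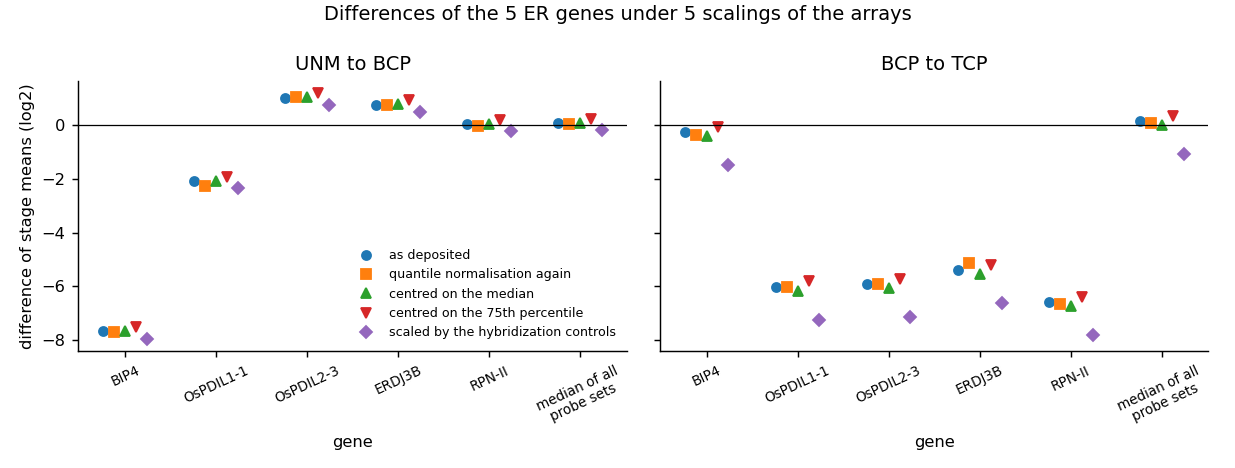
Differences of stage means (log2) of the 5 genes, and the median difference of all probe sets, under 5 scalings of the arrays. From BCP to TCP scaling by the hybridization controls moves the genes and the median of all probe sets down together, the latter from 0.14 to -1.09.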

How the data were processed

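The deposited table holds log2 signals for each probe set on each array. The submitters' processing notes name RMA. For its version, the sources used here give nothing. Labelled cRNA came from 5 ug of total RNA, per the labels' protocols. Values were used as deposited. Of 57381 probe sets, 187 controls and reporters were left out and 57194 tested. The platform annotation gave 1 gene for 22436 of them. All 17905 genes were found by ID in the RefSeq gene table, whose coordinates are not printed because the array's build is not named.

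The test was that of limma 3.58.1 (R 4.3.3), fitted once to all 6 arrays with stage as the factor (residual degrees of freedom 3, prior 3.87), two-sided, with Benjamini-Hochberg adjustment over all probe sets. The fit was tested on simulated data. Nothing but the spread between these arrays enters the p-values, and their number limits the precision. A lower bound of a fold uses the reporters' 95th percentile in place of a dimmer signal.

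The 5 genes and the lists were chosen with earlier results of these data known. Lists match names in the RefSeq table. Names that matched by coincidence were removed by hand from their other names alone: 8 clones named bip, 2 genes named SPP without a peptidase synonym, TGA2.2, GLUP4, and 4 matches to the anther-wall list. No gene of exit from the ER was left. Named in the text are all measured BiP, disulfide isomerase, calreticulin, J-protein and oligosaccharyltransferase genes, and up to 3 passing genes per comparison in other groups. OsSPP2 is named besides, because its probe sets differed. Marker genes C6 and CAB2R were named after their values were seen. Alternatives were 4 scalings, 2 filters, 2 priors, 2 minimum differences, a replicate block, other uses of probe sets, only the stages compared, other extents of the list and leaving out each array.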

Additional observations from a re-analysis of the deposited data

How the results depend on the processing

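Leaving out each array in turn gave 5 to 6 falls and 7 to 9 rises among the 46 ER genes from UNM to BCP, 32 to 33 falls and 1 to 2 rises from BCP to TCP, and 32 to 33 falls and 1 rise from UNM to TCP. All probe sets called then numbered 12161 to 12353, 10946 to 11590 and 16682 to 17757. From BCP to TCP 1 rose without BCP replicate 1, since ERDJ3A no longer passed. A stage left with 1 array is assumed to vary like the others. Over the alternatives the falls numbered 25 to 44 from BCP to TCP and 24 to 44 from UNM to TCP, against 32 in both. The fewest came with a minimum difference of 2. The most came with scaling by the hybridization controls, where 67.7% and 76.5% of all genes fell. These counts include the chosen genes, which were picked for their falls. The rises were few, so that single genes moved them: from UNM to BCP 8 became 3 after scaling by the hybridization controls. From BCP to TCP 2 became 1 after that scaling, after centring on the median and with a minimum difference of 2. From UNM to TCP 1 became 2 after centring on the 75th percentile. Without a minimum difference 21 genes rose from UNM to BCP and 2 from UNM to TCP. With a minimum of 2, 2 fell and 1 rose from UNM to BCP. Alternatives added after seeing the data were 3 other extents of the list and the scalings without the 5 chosen genes. Without the signal peptide peptidase family 1 rose from BCP to TCP and 0 from UNM to TCP by limma, and with the coincidental names kept 4 rose from UNM to TCP. All probe sets called numbered 12330, 10993 and 17130 in the 3 comparisons. Without a minimum difference they were 19620, 21767 and 30981, and with a minimum of 2 they were 5643, 5018 and 8827. After scaling by the hybridization controls 34327 were called from BCP to TCP and 41661 from UNM to TCP. The cause of these moves was not tested, other than the wider or narrower threshold or list itself.

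The replicate numbers did not pair the samples: deviations of same-numbered arrays had correlations of -0.05, -0.07 and 0.01. With a replicate block the 46 genes gave the same counts of falls and rises, and 12329, 10995 and 17131 probe sets were called. None of the chosen genes has another probe set with a single gene, so that alternative could not be run for them. Their differences of at least 1 kept their sign under all scalings and without each array. Nothing is read from this, since the genes were picked for large falls. The rise of OsPDIL2-3 from UNM to BCP, 1.01 as deposited, was 0.75 after scaling by the hybridization controls. It was 0.90 without UNM replicate 1 and without BCP replicate 2. Background limits the size of the differences of BIP4, OsPDIL1-1, OsPDIL2-3 and RPN-II.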
